A study of Mus musculus with 9 samples.

Results

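Fn1 is the mouse gene for fibronectin, and its transcript was measured here by 57 probe sets of a whole-transcript exon array. A probe set is a small group of array probes that reads a short stretch of a gene, usually an exon or a piece of one. The members were every probe set whose platform annotation gives exactly 1 symbol, Fn1, which made 57 of 316997 probe sets with 1 symbol and 1 of 12646 genes tested. All 57 were bright enough to be kept. The gene was chosen by its own measured values on these arrays, the gene value and the departures of single probe sets from it, so the values of Fn1 and of its probe sets are given as a description, with no test.

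Fibronectin is a large secreted glycoprotein whose chains are joined as a dimer and assembled by cells into the fibrils of the extracellular matrix. Its RGD motif binds integrins, above all the receptor of the alpha 5 and beta 1 chains, and other stretches bind heparan sulphate chains, collagen and fibrin. The single gene gives many proteins because the exons EIIIA and EIIIB (also called EDA and EDB) and the variable V region can be spliced in or out. Plasma fibronectin made by liver lacks EIIIA and EIIIB, whereas cells in culture and in wounds also make forms that hold them. In muscle, fibronectin is part of the matrix around the satellite cells, the stem cells from which myoblasts arise. The annotation used here gives a probe set its gene but not its exon, so which probe sets lie in EIIIA, EIIIB or V was not determined, and probe sets are named by their number.

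C2C12 cells, an established line of mouse myoblasts that can fuse into myotubes, were kept in growth medium and transfected with siRNA, either a control or 1 directed at Cugbp1 or at Mbnl1. Total RNA was taken 48 h later, and 100 ng was used for each of 9 arrays, 3 for each siRNA. Cugbp1, now named Celf1, and Mbnl1 encode RNA-binding proteins that steer splicing and the stability of messages, often in opposite directions, and both are disturbed in myotonic dystrophy. The labels do not say whether the arrays of a group came from separate cultures, so the spread behind every p-value is that of these arrays and may be technical.

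Values are log2 of the deposited intensity, and the value of a gene on an array is the median polish of its kept probe sets. The median intensity of all probe sets was 43.6 to 43.8 on the control arrays and 42.3 to 42.9 on the siRNA arrays. Both targets were lower under their own siRNA. Celf1 fell by 1.46 after Cugbp1 siRNA (limma adjusted p = 9.01e-07) and changed by -0.07 after Mbnl1 siRNA, and Mbnl1 fell by 1.35 after Mbnl1 siRNA (limma adjusted p = 3.97e-07) and changed by 0.05 after Cugbp1 siRNA. All 5 myoblast markers were above the filter, with control values from 9.61 for Myod1 to 12.28 for Chrna1. Myod1 and Cdh15 rose by 0.30 and 0.32 after Cugbp1 siRNA (limma adjusted p = 0.0142 and 0.00602), and Myf5 fell by 0.28 after Mbnl1 siRNA (limma adjusted p = 0.0147). Of 8 markers of blood, endothelial, epithelial, nerve and fat cells, 5 were tested, with control values of 7.42 to 9.02 against a filter of 7.00. Cdh5, Epcam and Adipoq had fewer than 3 kept probe sets and were not tested.

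Fibronectin message was lower after Cugbp1 siRNA and higher after Mbnl1 siRNA than in control cells. The Fn1 gene value was 13.15, 13.15 and 13.15 on the control arrays, 13.00, 13.01 and 13.06 after Cugbp1 siRNA, and 13.33, 13.40 and 13.37 after Mbnl1 siRNA. The 3 groups did not overlap: every Cugbp1 siRNA array was below every control array, and every Mbnl1 siRNA array was above every control array. Group means were 13.15 (SD 0.00128, n = 3) for control, 13.02 (SD 0.03, n = 3) for Cugbp1 siRNA and 13.36 (SD 0.04, n = 3) for Mbnl1 siRNA. The median polish gave nearly the same value on the 3 control arrays, whereas the median SD of a single Fn1 probe set in control was 0.06. In bulk RNA, fewer cells that make a message and less message in each cell cannot be told apart.

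On the log2 scale the Fn1 gene value differed from control by -0.13 (SE 0.04) after Cugbp1 siRNA, which is 91.7% of the control level. The SE, here and below, is that of the limma fit, which draws on the spread of all genes and not of the Fn1 values alone. After Mbnl1 siRNA it differed by 0.22 (SE 0.04), or 116% of the control level. That size varied with the probe sets used: their median change was 0.36 in the dimmest 19 and 0.13 in the brightest 19. Between the siRNAs the Fn1 gene value was 0.34 lower after Cugbp1 siRNA, or 78.9% of the level after Mbnl1 siRNA (difference -0.34, SE 0.04). The same 3 control arrays serve both comparisons with control, which are therefore not independent.

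Against all genes tested, neither change from control was large. Gene values without overlap of arrays were found in 15.9% of genes in the lower and 32.9% in the higher direction after Cugbp1 siRNA, and in 20.3% in the lower and 37.3% in the higher direction after Mbnl1 siRNA. The median change of all genes was 0.05 after Cugbp1 siRNA and 0.04 after Mbnl1 siRNA, so relative to it Fn1 stood at -0.18 and 0.17. A change at least as large as that of Fn1, in either direction, was seen in 52.5% of genes after Cugbp1 siRNA and in 30.8% after Mbnl1 siRNA. Between the siRNAs, where the median change of all genes was 0.01, 14.4% of genes were lower and 15.1% higher without overlap, and 2.50% differed by at least as much as Fn1.

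**Figure D1:**
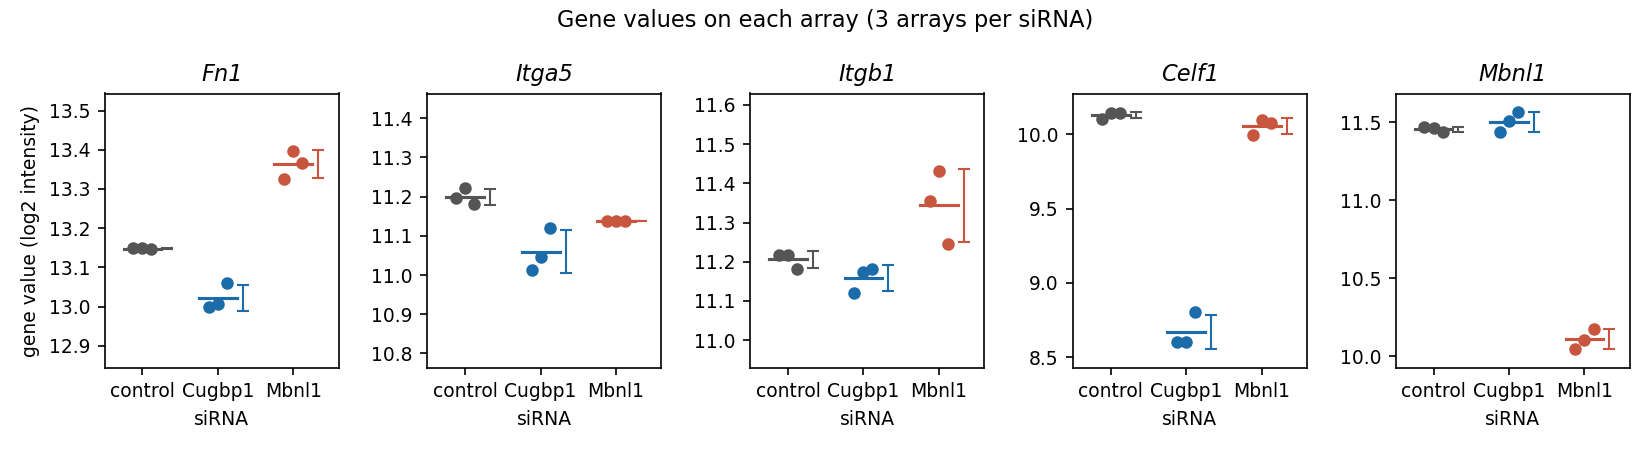
Gene values (log2 intensity, vertical axes with a range of their own) of Fn1, of the integrin chains Itga5 and Itgb1, and of the siRNA targets Celf1 and Mbnl1 on each of 9 arrays, by siRNA. Points are arrays, lines are means and bars to the right are the mean with 1 SD; the Fn1 points lie at 13.15 in control, from 13.00 to 13.06 after Cugbp1 siRNA and from 13.33 to 13.40 after Mbnl1 siRNA.

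Probe sets along the message moved mostly together. After Cugbp1 siRNA, the mean of 52 of the 57 Fn1 probe sets was below that of the control arrays and that of 5 was above it. In 29 probe sets all Cugbp1 siRNA arrays were below all control arrays, in 1 all were above, and in 27 the arrays overlapped. Over the 162529 kept probe sets of tested genes, 9.94% were lower and 24.3% were higher without overlap. The change of the 57 probe sets ran from -0.48 to 0.41, with a median of -0.13 and an SD over probe sets of 0.13.

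After Mbnl1 siRNA, the mean of all 57 Fn1 probe sets was above that of the control arrays. In 49 of them no Mbnl1 siRNA array was as low as a control array, and in the other 8 the arrays overlapped. Over the 162529 kept probe sets of tested genes, 29.7% were higher and 13.1% were lower without overlap. The change ran from 0.04 to 1.09, with a median of 0.22 and an SD over probe sets of 0.19.

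Set directly against each other, the mean of all 57 Fn1 probe sets was lower after Cugbp1 siRNA than after Mbnl1 siRNA, and in 55 of them the arrays did not overlap. The exceptions were 4612563 and 4630426. Over the 162529 kept probe sets of tested genes, 11% were lower and 10.8% were higher without overlap in this comparison. The change ran from -1.08 to -0.05, with a median of -0.35. Within a group the arrays differed little: the median SD of an Fn1 probe set was 0.06 in control, 0.06 after Cugbp1 siRNA and 0.05 after Mbnl1 siRNA.

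The probe sets of Fn1 were among the brightest on the array. Their mean over 9 arrays ran from 10.01 to 13.99 on the log2 scale, with a median of 13.17, and 51 were at 12 or more while 3 were under 11. Of the kept probe sets of tested genes, 0.481% were at 13.17 or above, and the brightest of them all stood at 14.70. Brightness differs between probe sets with the binding of their probes, so it does not order exons by abundance.

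The size of the change moved with brightness. In the dimmest 19 probe sets (10.01 to 12.80) the median change after Mbnl1 siRNA was 0.36, in the middle 19 (12.88 to 13.34) it was 0.22, and in the brightest 19 (13.34 to 13.99) it was 0.13. After Cugbp1 siRNA the corresponding medians were -0.14, -0.13 and -0.11. Between the siRNAs they were -0.58, -0.35 and -0.24.

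Over the 57 probe sets, which share arrays, Spearman's rho of change and mean brightness was 0.29 after Cugbp1 siRNA, -0.71 after Mbnl1 siRNA and 0.85 between the siRNAs. With the gene value taken from the dimmer probe sets the change of Fn1 was -0.17 after Cugbp1 siRNA and 0.32 after Mbnl1 siRNA, and from the brighter ones 0.15 after Mbnl1 siRNA. The part of brightness in the size of these changes was not tested. Matrix partners with at least 20 kept probe sets differed in this respect: their rho after Mbnl1 siRNA ran from -0.47 for Tnc and -0.46 for Thbs1 to 0.37 for Col6a1 and 0.40 for Col5a1. In genes of the other lists with as many probe sets it ran from -0.60 for Tns3 and -0.56 for Vcl to 0.10 for Ptk2. The gene values of Tns3 and Vcl changed by -0.12 and 0.03 after Mbnl1 siRNA and were not called.

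**Figure D2:**
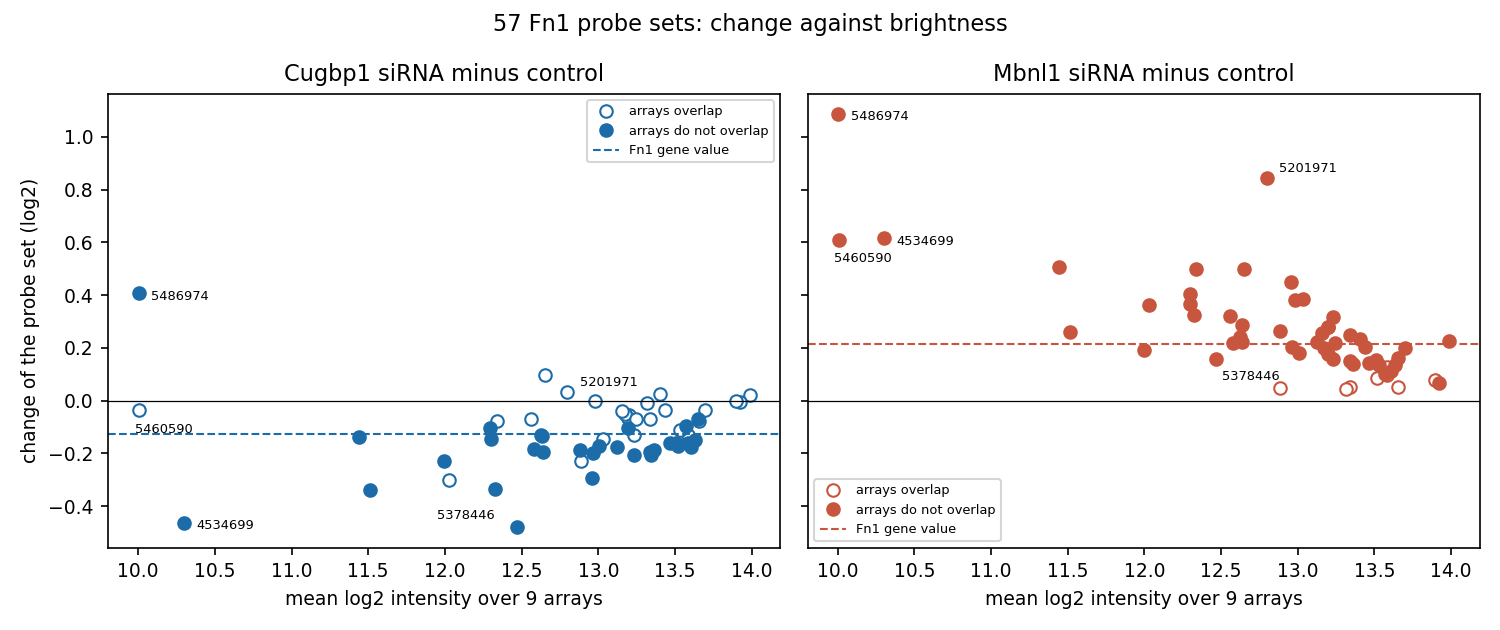
Change of each of the 57 Fn1 probe sets (vertical axis, log2) against its mean log2 intensity over 9 arrays (horizontal axis), after Cugbp1 siRNA on the left and Mbnl1 siRNA on the right; filled points are probe sets whose arrays do not overlap with control, and the dashed line is the change of the Fn1 gene value. On the right all points lie above 0 and the changes shrink toward the bright end, with 5201971 at 0.84 and 5486974 at 1.09 standing highest.

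A probe set in an exon that is spliced in more or less often departs from the rest of its gene. The departure is the probe set's value minus the Fn1 gene value on the same array. Its change between groups takes off the change of the gene value, the same amount for every probe set. The link of change with brightness therefore stays in the departures, with a rho of -0.71 after Mbnl1 siRNA and 0.85 between the siRNAs. Exon use and brightness as sources of a departure were not told apart. Most Fn1 probe sets departed little: the change of departure was smaller than 0.2 on the log2 scale for 51 probe sets after Cugbp1 siRNA, for 49 after Mbnl1 siRNA and for 41 between the siRNAs.

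A change of departure of at least 1.5-fold was reached by 0 Fn1 probe sets after Cugbp1 siRNA, by 2 after Mbnl1 siRNA and by 1 between the siRNAs. Over all probe sets of genes with at least 4 kept probe sets, 2.56%, 3.8% and 0.302% reached that size. At 1.25-fold the Fn1 counts were 3, 4 and 5, against 14.2%, 17.1% and 4.07% of all probe sets. These counts hung on single arrays: without control array 1, 1 Fn1 probe set reached 1.5-fold after Cugbp1 siRNA (5486974 at 0.63) and 1 did so after Mbnl1 siRNA, because 5201971 then stood at 0.581 against the bound of 0.585.

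Probe set 5201971, at a mean of 12.80 the brightest of the dimmest 19, had the second largest change of departure after Mbnl1 siRNA. Its log2 values were 12.44, 12.57 and 12.50 in control, 12.69, 12.37 and 12.56 after Cugbp1 siRNA, and 13.29, 13.40 and 13.35 after Mbnl1 siRNA. Control and Cugbp1 siRNA arrays overlapped, and all Mbnl1 siRNA arrays were higher than both. Its departure from the gene was -0.71, -0.58 and -0.64 in control and -0.03, 0.00 and -0.01 after Mbnl1 siRNA.

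Probe set 5201971 thus lay below the rest of Fn1 on the 3 control arrays and level with it on the 3 Mbnl1 siRNA arrays. It was 1.79-fold brighter after Mbnl1 siRNA than in control (difference 0.84), and its departure changed by 0.63, or 1.55-fold. Leaving out 1 array at a time, the change of departure ran from 0.58 to 0.66, and against the dimmer Fn1 probe sets alone it was 0.52. The 10 Fn1 probe sets nearest to it in brightness (12.63 to 13.01) changed by 0.05 to 0.50, with a median of 0.25. After Cugbp1 siRNA the change of 5201971 was 0.03 and that of its departure 0.16, with arrays that overlapped.

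Probe set 5486974 was the dimmest of the 57 and was higher under both siRNAs. Its log2 values were 9.75, 9.19 and 9.58 in control, 9.79, 9.83 and 10.13 after Cugbp1 siRNA, and 10.58, 10.53 and 10.68 after Mbnl1 siRNA. All arrays of either siRNA were above all control arrays, though the highest control array, at 9.75, and the lowest Cugbp1 siRNA array, at 9.79, lay close. It was the 1 Fn1 probe set that was higher after Cugbp1 siRNA without overlap.

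The change of 5486974 was 0.41 after Cugbp1 siRNA and 1.09 after Mbnl1 siRNA, and its departure changed by 0.53 and 0.87, or 1.45-fold and 1.83-fold. Its control arrays spread more (SD 0.28) than the median Fn1 probe set did. Without control array 2, its lowest control value, the departures changed by 0.36 and 0.71. The 10 Fn1 probe sets nearest to it in brightness lay between 10.01 and 12.34 and changed by 0.19 to 0.61 after Mbnl1 siRNA, so few of them were as dim.

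Probe set 4534699, also dim, moved in opposite directions under the siRNAs. Its log2 values were 10.17, 10.14 and 10.44 in control, 9.73, 9.78 and 9.85 after Cugbp1 siRNA, and 10.93, 10.64 and 11.02 after Mbnl1 siRNA. The 3 groups did not overlap. The changes were -0.46 and 0.61, and between the siRNAs -1.08, the widest of any Fn1 probe set. Its departure differed by -0.74 between the siRNAs, or 0.600-fold, and by -0.34 and 0.40 from control.

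Another dim probe set changed less than 5486974. Probe set 5460590, which was chosen after its values were seen because it is as dim as 5486974, read 9.56, 9.90 and 9.99 in control, 9.74, 9.77 and 9.83 after Cugbp1 siRNA, and 10.35, 10.42 and 10.50 after Mbnl1 siRNA. Its control and Cugbp1 siRNA arrays overlapped and its Mbnl1 siRNA arrays were higher. It changed by -0.04 and 0.61, and its departure by 0.09 and 0.39.

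Downward departures after Cugbp1 siRNA were led by 5378446. It read 12.64, 12.62 and 12.46 in control, 11.91, 12.20 and 12.18 after Cugbp1 siRNA, and 12.67, 12.78 and 12.75 after Mbnl1 siRNA. Its Cugbp1 siRNA arrays were below all others. The change after Cugbp1 siRNA was -0.48, the most negative of the 57, and that of its departure -0.35. The 10 probe sets nearest in brightness changed by -0.34 to 0.10 after Cugbp1 siRNA, with a median of -0.13.

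After 5378446 and 4534699, the next lowest departure after Cugbp1 siRNA was that of 5423544, which read 11.52, 11.50 and 11.60 in control, 11.14, 11.15 and 11.31 after Cugbp1 siRNA, and 11.78, 11.79 and 11.83 after Mbnl1 siRNA. Its groups did not overlap, and its departure changed by -0.21 after Cugbp1 siRNA and by 0.04 after Mbnl1 siRNA. Probe set 5513654 went the other way. It read 12.61, 12.27 and 12.48 in control, 12.58, 12.49 and 12.57 after Cugbp1 siRNA, and 12.95, 12.92 and 12.98 after Mbnl1 siRNA, and its departure changed by 0.22 and 0.28.

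The lowest departures after Mbnl1 siRNA belonged to probe sets that stayed near control while the gene was higher. Probe set 4612563 read 13.37, 13.18 and 13.36 in control, 13.38, 13.25 and 13.25 after Cugbp1 siRNA, and 13.35, 13.31 and 13.38 after Mbnl1 siRNA. All its groups overlapped, and its departure changed by 0.12 and -0.17.

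Probe sets 5590701 and 4368904 behaved alike in size. Probe set 5590701 read 12.87, 13.03 and 12.89 in control and 12.95, 13.04 and 12.95 after Mbnl1 siRNA, and 4368904 read 13.29, 13.50 and 13.39 in control and 13.44, 13.48 and 13.41 after Mbnl1 siRNA. These control and Mbnl1 siRNA arrays overlapped. The departure of each changed by -0.17, the same size as for 4612563.

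**Figure D3:**
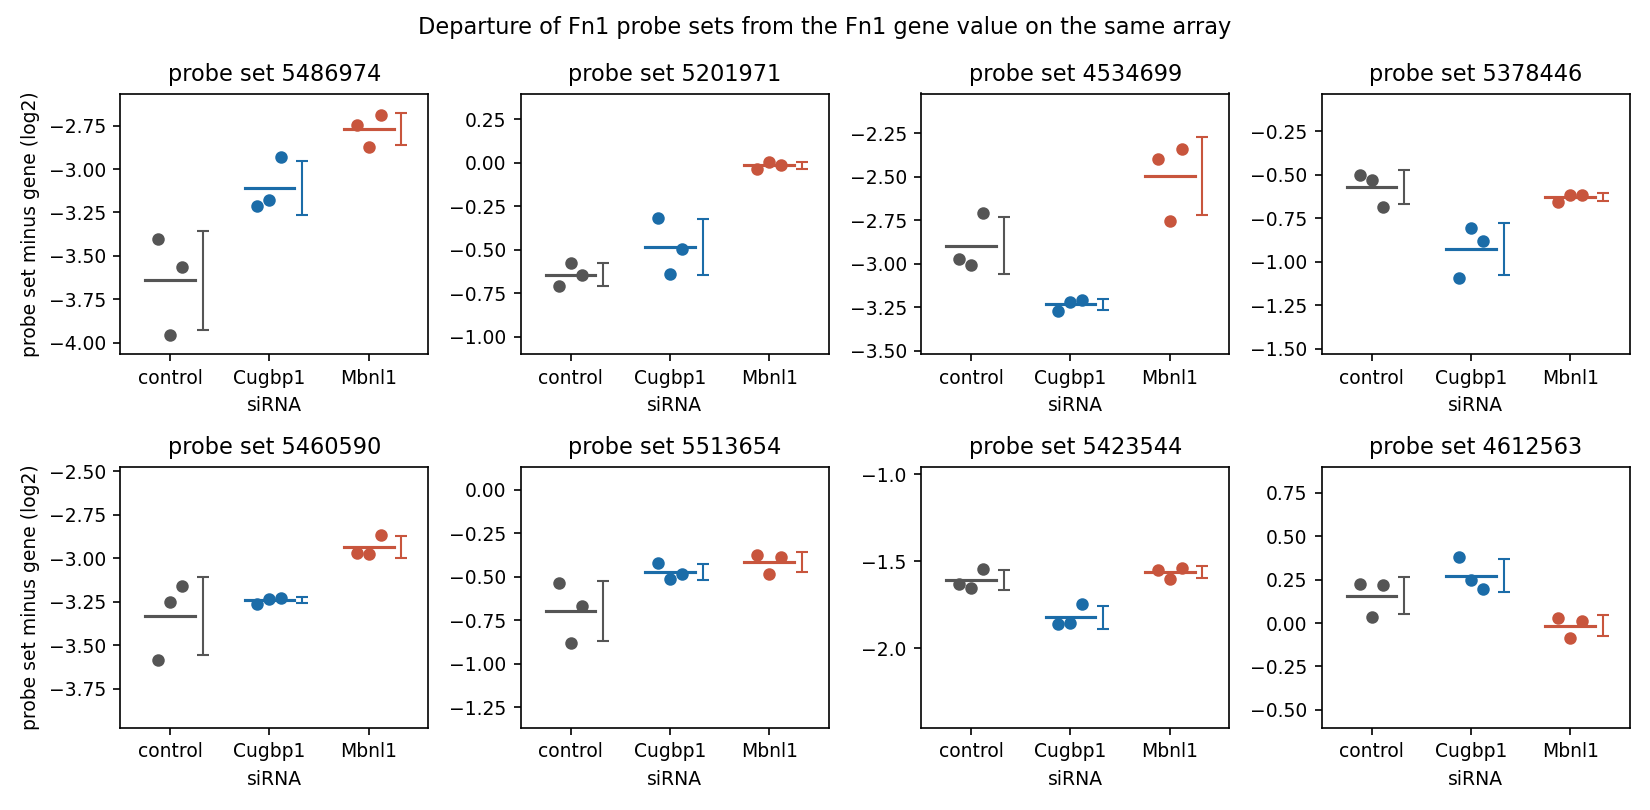
Departure of 8 Fn1 probe sets from the Fn1 gene value on the same array (vertical axis, log2; every panel spans the same height), by siRNA; points are arrays, lines are means and bars are the mean with 1 SD. Probe set 5201971 lies near -0.64 in control and near -0.01 after Mbnl1 siRNA, 5486974 is higher under both siRNAs, and 5378446 is lower after Cugbp1 siRNA.

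The genes around fibronectin were read from 6 lists: its integrin receptors, syndecans and adhesion proteins, matrix partners, proteases, RNA-binding proteins for its alternative exons, and TGF-beta signalling. Of 72 listed genes 64 were tested. Limma called 24 of them after Cugbp1 siRNA (16 higher, 8 lower), 37 after Mbnl1 siRNA (28 higher, 9 lower) and 20 between the siRNAs (1 higher and 19 lower after Cugbp1 siRNA). Those shares, 37.5%, 57.8% and 31.3%, stand beside 38.7%, 41.5% and 9.34% of all genes called. By direction, limma called 26% of all genes higher and 12.7% lower after Cugbp1 siRNA, 26.9% higher and 14.6% lower after Mbnl1 siRNA, and 4.27% higher and 5.07% lower between the siRNAs. The count after Cugbp1 siRNA was 15 without Cugbp1 siRNA array 3, and that between the siRNAs was 13 without Mbnl1 siRNA array 1 and 13 without Mbnl1 siRNA array 2.

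Among markers of other cells, 3 of the 5 tested were lower after Cugbp1 siRNA, and 3 were lower and 1 higher after Mbnl1 siRNA. Limma called 60% and 80% of them, against 38.7% and 41.5% of all genes. The mean gene value of the 5 markers was 8.15 in control, 7.92 after Cugbp1 siRNA and 7.93 after Mbnl1 siRNA. The part of these weak signals in the lower values of other weak genes was not tested.

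The receptors moved in both directions. Of 10 integrin chains tested, 2 were higher and 4 lower after Cugbp1 siRNA, and 4 were higher and 4 lower after Mbnl1 siRNA (median changes -0.10 and 0.04). Calls thus covered 60% and 80% of the list, against 38.7% and 41.5% of all genes. Itga5, the alpha 5 chain of the main fibronectin receptor, fell by 0.14 after Cugbp1 siRNA (SE 0.04, limma adjusted p = 0.0238) and differed by -0.06 after Mbnl1 siRNA (limma adjusted p = 0.261). Itgb1, the beta 1 chain that pairs with it, differed by -0.05 after Cugbp1 siRNA and by 0.14 after Mbnl1 siRNA, and did not pass the test in either comparison (limma adjusted p = 0.479 and 0.052). After Mbnl1 siRNA Itgb1 passed it under 8 of 16 alternatives, among them leaving out control array 2, Cugbp1 siRNA array 1 or 2 or Mbnl1 siRNA array 3 (lowest adjusted p = 0.00321). Between the siRNAs it was 0.19 lower after Cugbp1 siRNA (difference -0.19, limma adjusted p = 0.0483), a call lost under 8 of 16 alternatives, among them leaving out control array 1, Cugbp1 siRNA array 2 or 3 or Mbnl1 siRNA array 1 or 2 (highest adjusted p = 0.137).

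The largest receptor change was that of Itgb8, a chain that pairs with alpha v and releases active TGF-beta. It rose by 0.49 after Cugbp1 siRNA and by 0.90 after Mbnl1 siRNA (SE 0.07, limma adjusted p = 0.00117 and 3.18e-05). Itgb3, the beta chain of the vitronectin receptor, rose by 0.44 after Mbnl1 siRNA (limma adjusted p = 4.4e-04) and was 0.61 lower after Cugbp1 than after Mbnl1 siRNA (difference -0.61, limma adjusted p = 2.46e-04). The gene values of Itgb3 were 9.16, 9.18 and 9.25 in control, 8.92, 9.12 and 9.06 after Cugbp1 siRNA, and 9.59, 9.70 and 9.63 after Mbnl1 siRNA, the same order of groups as for Fn1. Itgb5, another partner of alpha v, rose by 0.27 after Mbnl1 siRNA (limma adjusted p = 8.08e-04). Its rise by 0.12 after Cugbp1 siRNA (limma adjusted p = 0.0419) was lost under 12 of 16 alternatives, among them leaving out any array other than Cugbp1 siRNA array 1 (highest adjusted p = 0.269).

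Other integrin calls were less settled. The fall of Itgb3 by 0.17 after Cugbp1 siRNA (limma adjusted p = 0.0483) was lost under 9 of 16 alternatives, among them leaving out control array 2 or 3, Cugbp1 siRNA array 1 or 3 or any Mbnl1 siRNA array (highest adjusted p = 0.112). That of Itga5 was lost without control array 1 or Cugbp1 siRNA array 2 and with arrays centred on the median (highest adjusted p = 0.0871). Itga9 fell by 0.28 and 0.29 under Cugbp1 and Mbnl1 siRNA (limma adjusted p = 0.0275 and 0.0219), calls that were lost without control array 1 or 2 or without array 1 or 3 of the siRNA in question (highest adjusted p = 0.109 and 0.0718). Itgb6 fell by 0.24 after Cugbp1 siRNA (limma adjusted p = 0.00526), and with no filter on weak probe sets its change was -0.02 (adjusted p = 0.726). Its fall by 0.17 after Mbnl1 siRNA (limma adjusted p = 0.0203) was lost under 9 of 16 alternatives, among them leaving out control array 1 or 3 or any Mbnl1 siRNA array, and with no filter its change was 0.10.

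Of 16 syndecans and adhesion proteins tested, 4 were higher after Cugbp1 siRNA, and 3 were higher and 1 lower after Mbnl1 siRNA. Limma called 25% of this list in each comparison, against 38.7% and 41.5% of all genes. Sdc2, a heparan sulphate proteoglycan of the cell surface, rose by 0.53 and 0.71 (SE 0.04, limma adjusted p = 9.64e-05 and 6.61e-06). Sdc1 rose by 0.25 after Mbnl1 siRNA (limma adjusted p = 0.0015) and changed by 0.02 after Cugbp1 siRNA. Fermt2, a kindlin that activates integrins, rose by 0.21 after Cugbp1 siRNA (limma adjusted p = 0.00293), and Tln1, the talin that links integrins to actin, fell by 0.17 after Mbnl1 siRNA (limma adjusted p = 0.0119).

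Sdc4, the syndecan that joins integrins in focal adhesions, and Ptk2, the focal adhesion kinase, each rose by 0.14 after Cugbp1 siRNA (limma adjusted p = 0.0488 and 0.0384). The Sdc4 call was lost under 13 of 16 alternatives, among them leaving out any array other than Cugbp1 siRNA array 2 and Mbnl1 siRNA array 2 (highest adjusted p = 0.231). The Ptk2 call was lost under 9, among them leaving out control array 2 or 3, Cugbp1 siRNA array 2 or 3 or Mbnl1 siRNA array 2 (highest adjusted p = 0.139). Ptk2 rose by 0.15 after Mbnl1 siRNA (limma adjusted p = 0.0226), a call lost under 6 alternatives, among them leaving out control array 2 or 3 or Mbnl1 siRNA array 2 or 3 (highest adjusted p = 0.108).

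The matrix partners rose mostly after Mbnl1 siRNA. Of 13 tested, 8 were higher, with a median change over the list of 0.26 against 0.04 over all genes, whereas 2 were higher after Cugbp1 siRNA, with a median of 0.01. The shares called higher, 61.5% after Mbnl1 siRNA and 15.4% after Cugbp1 siRNA, stand beside 26.9% and 26% of all genes. Fbn1, the microfibril protein fibrillin, rose by 0.65 after Mbnl1 siRNA (SE 0.05, limma adjusted p = 1.41e-05). Tnc, the anti-adhesive matrix protein tenascin C, rose by 0.59 (SE 0.05, limma adjusted p = 5.08e-05), and Ltbp1, which stores latent TGF-beta on fibronectin and fibrillin, rose by 0.45 (SE 0.07, limma adjusted p = 6.89e-04).

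Their changes after Cugbp1 siRNA were 0.08 for Fbn1, -0.10 for Tnc and 0.08 for Ltbp1. The difference between the siRNAs passed the test for Fbn1, at -0.57, for Tnc, at -0.69 (limma adjusted p = 7.11e-05 for both), and for Ltbp1, at -0.37 (limma adjusted p = 0.00684). Tnc read 10.68, 10.71 and 10.75 in control, 10.67, 10.52 and 10.66 after Cugbp1 siRNA, and 11.25, 11.31 and 11.37 after Mbnl1 siRNA. All its Cugbp1 siRNA arrays were below all control arrays, and all its Mbnl1 siRNA arrays were above both.

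Col6a1, a chain of the collagen VI that surrounds muscle fibres, rose by about the same size under both siRNAs, by 0.39 and 0.36 (SE 0.04, limma adjusted p = 2.88e-04 and 2.25e-04). Fbln1, a fibulin that binds fibronectin, rose by 0.18 after Cugbp1 siRNA (limma adjusted p = 0.0281), a call lost under 10 of 16 alternatives, among them leaving out control array 1 or 3, Cugbp1 siRNA array 1 or 2 or any Mbnl1 siRNA array (highest adjusted p = 0.172). After Mbnl1 siRNA Fbln1 rose by 0.29 (SE 0.06, limma adjusted p = 0.00264), a call kept under all 16 alternatives. The difference between the siRNAs was 0.03 for Col6a1.

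Proteases that cut fibronectin or the matrix around it moved in both directions. Of 7 proteases and receptors tested, 1 was higher and 3 lower after Cugbp1 siRNA, and 3 were higher and 3 lower after Mbnl1 siRNA. That is 57.1% and 85.7% called, against 38.7% and 41.5% of all genes. Plat, the tissue plasminogen activator, rose by 0.70 after Mbnl1 siRNA (SE 0.05, limma adjusted p = 1.49e-05) and was 0.75 lower after Cugbp1 than after Mbnl1 siRNA (difference -0.75, limma adjusted p = 3.20e-05). Mmp2, a gelatinase, rose by 0.51 after Mbnl1 siRNA (SE 0.06, limma adjusted p = 2.38e-04), and Mmp14, the membrane protease that activates it, rose by 0.49 (SE 0.05, limma adjusted p = 7.45e-05).

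Plau, the urokinase, fell by 0.27 after Cugbp1 siRNA (SE 0.05, limma adjusted p = 0.00323) and differed by 0.04 after Mbnl1 siRNA. Plaur, its receptor, fell by 0.17 after Cugbp1 siRNA (limma adjusted p = 0.0206), a call lost without control array 1 or 3 or Cugbp1 siRNA array 2 or 3 (highest adjusted p = 0.0995). After Mbnl1 siRNA Plaur fell by 0.22 (SE 0.05, limma adjusted p = 0.00504), a call kept under all 16 alternatives. Mmp14 rose by 0.17 after Cugbp1 siRNA (limma adjusted p = 0.0193), a call lost without control array 1 or Cugbp1 siRNA array 2 (highest adjusted p = 0.0824).

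Dpp4, a surface peptidase that binds fibronectin, rested on 3 kept probe sets. It fell by 0.34 and 0.29 under Cugbp1 and Mbnl1 siRNA (limma adjusted p = 0.0212 and 0.0412). With no filter on weak probe sets its changes were -0.02 and 0.09, and neither passed the test. Leaving out Cugbp1 siRNA array 3 ended the first call, and leaving out control array 1 or 2, any Cugbp1 siRNA array or Mbnl1 siRNA array 2 ended the second.

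Of 8 RNA-binding proteins tested that act on the alternative exons of fibronectin, 2 were higher and 1 lower after Cugbp1 siRNA, and 3 were higher and 1 lower after Mbnl1 siRNA. These shares, 37.5% and 50%, stand beside the 38.7% and 41.5% of all genes called. Between the siRNAs limma called 0 of 8, and 1 had an unadjusted p under 0.05. Srsf5, an SR protein, a class known for promoting the use of exons, rose by 0.24 and 0.21 (SE 0.05, limma adjusted p = 0.00547 and 0.00897), and the second call was lost without Mbnl1 siRNA array 3 (highest adjusted p = 0.0797).

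Hnrnpa1, an abundant splicing repressor, rose by 0.26 and 0.33 (SE 0.07, limma adjusted p = 0.0199 and 0.00613), calls lost without Cugbp1 siRNA array 3 and without Mbnl1 siRNA array 2 respectively (highest adjusted p = 0.0889 and 0.0507). Esrp2, a splicing regulator of epithelial cells, fell by 0.31 under each siRNA (SE 0.08, limma adjusted p = 0.0159 and 0.0131). Both Esrp2 calls were lost with no filter on weak probe sets, and the first also without Cugbp1 siRNA array 3 (highest adjusted p = 0.0699 and 0.0703). Rbfox2 rose by 0.13 after Mbnl1 siRNA (limma adjusted p = 0.0175), a call lost without Mbnl1 siRNA array 1 and with arrays centred on the median of the kept probe sets (highest adjusted p = 0.0825).

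TGF-beta is a known inducer of fibronectin. Its part in the changes of Fn1, which were -0.13 after Cugbp1 siRNA and 0.22 after Mbnl1 siRNA, was not tested. Within each comparison against control, every gene of TGF-beta signalling that passed the test was higher than control. Of 10 tested, 5 were higher after Cugbp1 siRNA and 7 after Mbnl1 siRNA, with median changes of 0.13 and 0.25. Called higher were thus 50% and 70%, against 26% and 26.9% of all genes. Tgfb2, a ligand, rose by 0.32 and 0.53 (SE 0.04, limma adjusted p = 6.20e-04 and 2.73e-05), and Tgfb3, another ligand, rose by 0.22 and 0.41 (SE 0.05, limma adjusted p = 0.00663 and 2.23e-04). Smad3, a transcription factor of the pathway, rose by 0.31 under each siRNA (SE 0.04, limma adjusted p = 5.49e-04 and 3.52e-04), and Smad2 rose by 0.23 and 0.21 (SE 0.05, limma adjusted p = 0.00536 and 0.006). The call of Tgfb3 after Cugbp1 siRNA was lost with no filter on weak probe sets (adjusted p = 0.053).

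Ccn2, the connective tissue growth factor and a target of TGF-beta, rose by 0.36 after Mbnl1 siRNA (SE 0.06, limma adjusted p = 0.00142). After Cugbp1 siRNA it differed by -0.08, and the difference between the siRNAs was -0.44 (limma adjusted p = 0.00176). It read 9.97, 10.00 and 9.84 in control, 9.93, 9.87 and 9.75 after Cugbp1 siRNA, and 10.30, 10.24 and 10.33 after Mbnl1 siRNA. Control and Cugbp1 siRNA arrays of Ccn2 overlapped, unlike those of Fn1.

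**Figure D4:**
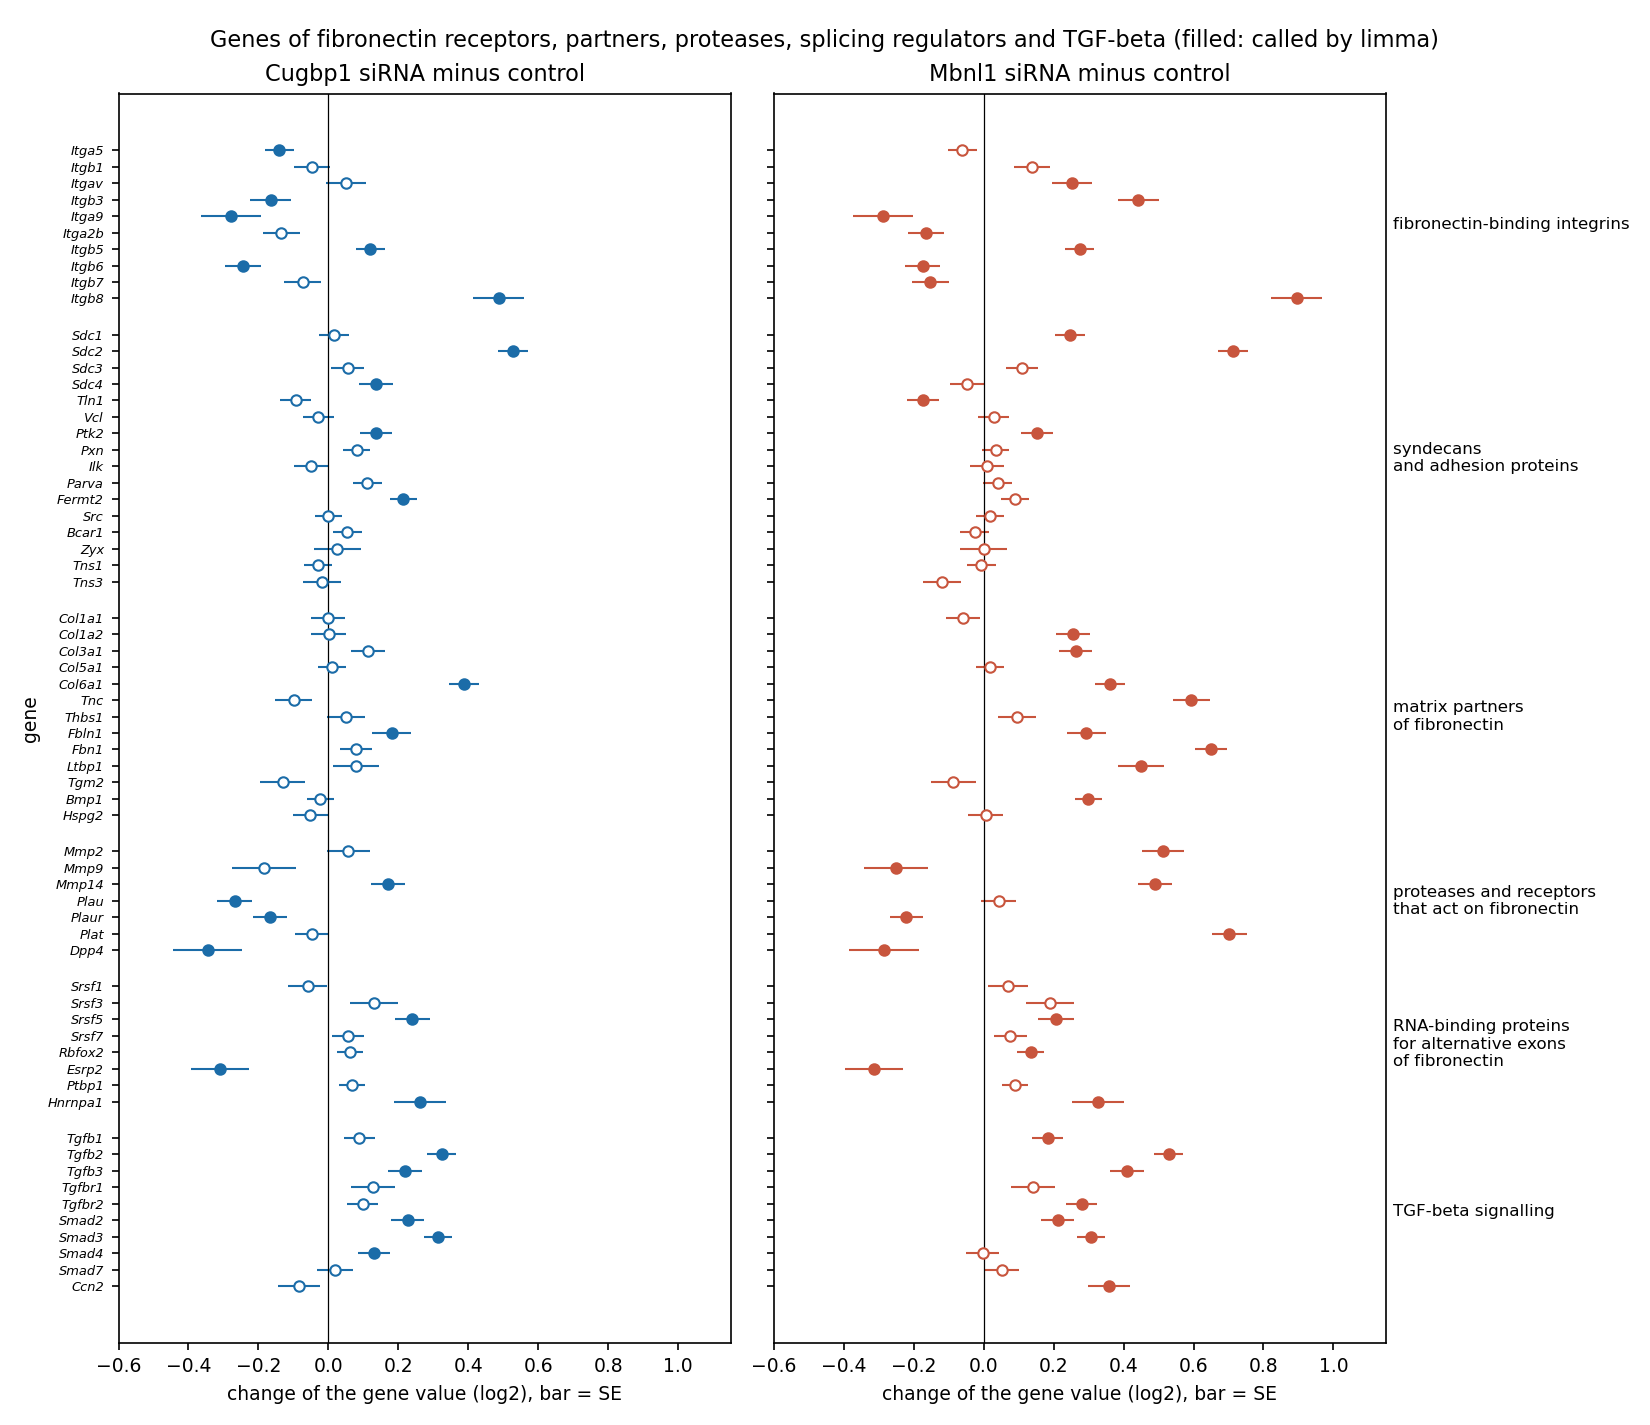
Change of the gene value (horizontal axes, log2) of the 64 tested genes of the 6 lists after Cugbp1 siRNA on the left and Mbnl1 siRNA on the right; points are changes, bars are 1 SE of the limma fit, and filled points are genes called at an adjusted p under 0.05. On the right 8 of 13 matrix partners and 7 of 10 genes of TGF-beta signalling are called higher, with Itgb8 at 0.90 farthest to the right.

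The 5 genes whose values followed those of Fn1 most closely over the 9 arrays, by Pearson's r among 12645 genes, were Clcn5 (0.989), Sorbs2 (0.983), Tmprss11f (0.981), Scyl2 (0.981) and Zdhhc21 (0.974). Likeness of this kind was chosen as the highest of many over 9 arrays in 3 groups, and has no test. Clcn5, a chloride and proton exchanger of endosomes, read 10.44, 10.44 and 10.41 in control, 10.30, 10.25 and 10.34 after Cugbp1 siRNA, and 10.71, 10.81 and 10.69 after Mbnl1 siRNA. Its groups, too, did not overlap.

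The other 4 genes had the same order of group means as Fn1, which the choice by likeness favours. Sorbs2, an adaptor protein of the actin cytoskeleton, differed from control by -0.31 and 0.47. The differences were -0.17 and 0.20 for Scyl2 and -0.25 and 0.23 for Zdhhc21, a palmitoyltransferase. Tmprss11f, a membrane serine protease, differed by -0.46 and 1.31, but rested on 4 probe sets. Its means of 6.78 in control and 6.33 after Cugbp1 siRNA were below the filter of 7.00, and only that after Mbnl1 siRNA, 8.10, was above it.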

How the data were processed

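The study deposited values of 1195555 probe sets on 9 arrays. Its values are intensity on a linear scale, made by the authors with RMA in Affymetrix Expression Console on build mm9, per the submitters' processing notes; their versions are not given in the sources used. Background correction and quantile normalisation in RMA make the arrays alike in distribution, and a global shift between groups cannot be seen.

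Deposited intensities were turned into log2. Probe sets were named from the platform annotation: 316997 had 1 symbol, 6571 had several and were left out, and 871987 were unnamed there. Old symbols were updated through a RefSeq table (GRCm38.p6), used for names alone. A probe set was kept when its mean log2 value was at least the 75th percentile of all probe sets, 7.00, and a gene was tested with 3 or more kept probe sets. Gene values were median polishes. Group means over 9 arrays were estimated for all 12646 genes by limma 3.58.1 under R 4.3.3, and a Benjamini-Hochberg adjusted p under 0.05 was a call. Departures, probe set minus gene value, were fitted alike for 158713 probe sets of genes with at least 4. Scripts were tested on simulated data. An exact permutation test of 3 arrays against 3 cannot go below p = 0.1, so none was used.

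The Fn1 probe sets and the 6 lists were chosen with earlier results of these data known. Named were, for Fn1, the 3 probe sets with the largest positive and the 3 with the largest negative change of departure in each comparison against control; of each list up to 4 called members with the largest change in each such comparison; Itga5 and Itgb1 by role; both targets; and the 5 genes most like Fn1. The number of arrays limits the precision. Alternatives tried were centring of arrays, repeated quantile normalisation, no filter, a filter at 8, means of probe sets, a replicate block and leaving out each array. Same-numbered arrays did not deviate together (correlations -0.10 to 0.12), so the numbers were not taken as pairs.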

Additional observations from a re-analysis of the deposited data

How the results depend on the processing

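The direction of the Fn1 change was the same under every alternative run. After Cugbp1 siRNA it was -0.088 with arrays centred on the median, -0.16 centred on the median of the kept probe sets and -0.17 from the dimmer probe sets, and -0.14 to -0.11 leaving out 1 array. After Mbnl1 siRNA those settings gave 0.24, 0.17 and 0.32, the mean of probe sets 0.26, the brighter probe sets 0.15, and leaving out 1 array 0.20 to 0.24. Between the siRNAs the mean gave -0.39, dimmer and brighter probe sets -0.49 and -0.26, and leaving out 1 array -0.35 to -0.31. Centring on kept probe sets, the split by brightness and the 1.25-fold bound were chosen after seeing the data. Departing Fn1 probe sets numbered 0 to 1 after Cugbp1 siRNA, 1 to 2 after Mbnl1 siRNA and 1 between the siRNAs when 1 array was left out, 1 after Mbnl1 siRNA against the dimmer probe sets, and 3, 4 and 5 at 1.25-fold. With no filter, limma called 14 list genes after Cugbp1 siRNA and 13 between the siRNAs, and 639 genes in all between the siRNAs (main count 1181). Leaving out 1 array gave 15 to 23, 30 to 39 and 13 to 16 list genes, and 3498 to 5523, 3899 to 6025 and 632 to 1155 genes, the lowest of these without Mbnl1 siRNA array 2. Calls of departing probe sets over all genes were the most dependent: 5955, 11072 and 44 became 671, 2689 and 0 with no filter (18889 of the last had an unadjusted p under 0.05) and 1623 to 6386, 3234 to 12516 and 12 to 36 leaving out 1 array, and so support nothing here. With the replicate block, the numbers being no pairs, limma called 4539, 4982 and 875 genes, 21, 36 and 16 list genes, and 20 departing probe sets between the siRNAs. With no filter Itgb6 and Dpp4 turned to 0.10 and 0.090 after Mbnl1 siRNA (limma adjusted p = 0.128 and 0.348). Of 72 calls of named genes, 43 were kept under every alternative and 29 were lost under at least 1. The causes were not tested.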
